A study of Mus musculus with 12 samples.

Results

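Very-long-chain, branched and dicarboxylic fatty acids are shortened inside peroxisomes before they reach mitochondria. The pathway has transporters that bring acyl-CoA across the peroxisomal membrane, an oxidase step, a bifunctional hydratase and dehydrogenase step, a thiolase that cuts off acetyl-CoA, and auxiliary isomerases and reductases for unsaturated chains. In rodent liver many of these genes are known targets of PPAR-alpha, the nuclear receptor that also drives proliferation of peroxisomes. The genes described here are 9 of that pathway: the transporters Abcd2 and Abcd3, the bifunctional enzymes Ehhadh and Hsd17b4, the thiolases Acaa1a and Acaa1b, the auxiliary enzymes Eci2 and Decr2, and Pex11a, a membrane protein that elongates and divides peroxisomes. They were taken by the RefSeq record of each array probe, which gave 9 probes, 1 for each gene, of 39429 on the array.

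The series asked how molecular hydrogen changes gene expression in the liver of male db/db mice, an obese diabetic model without a working leptin receptor that every animal here carried, labelled as 8 weeks-old. Animals received MgH2, which releases hydrogen on contact with water, by daily gavage for 1, 3 or 7 days at a labelled 0.9 mg/kg (also given elsewhere in the paper, although the methods state other doses; controls received Mg(OH)2), or drank hydrogen-dissolved water (H2-water, 0.8 mM) for 14 days, with degassed water for the controls. Each of the 4 groups had 3 two-colour arrays, and each array compared liver RNA pooled over 3 treated mice, in Cy5, with RNA pooled over 3 control mice, in Cy3, so that a pool, not a mouse, is the replicate. The dyes were never exchanged, so a dye effect of a probe cannot be told apart from treatment, and the agent, route, control, experiment, slide and version of the scanner software (an older one at 14 days) all differ between the 14-day arrays and the others. Values below are log2 of treated over control signal as the scanner software had normalised them, where 0 means equal signal. A gene was called when its limma adjusted p was under 0.05 after Benjamini-Hochberg correction over all probes above background on the arrays compared.

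Of the 9 genes, 8 exceeded background in Cy3 and Cy5 on every array. The exception was Abcd2, a transporter of very-long-chain acyl-CoA, which was above background on 1 of 3 arrays at 1 day, on 1 of 3 at 7 days and on none at 3 or 14 days. No ratio is given for it. Between 51.8% and 56.5% of spots on an array were above background in both channels and 0 were saturated. All 8 hepatocyte markers examined were above background on every array. Of 6 adipocyte markers, 3 were above background on all arrays of each MgH2 group and 2 at 14 days, the defining Adipoq, Plin1 and Lep not among them, and 1 was called (Cfd, -2.42 at 7 days, adjusted p = 0.038). In bulk liver RNA, fewer cells of a type and less RNA per cell cannot be told apart.

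Promoters are shown for some of the genes whose ratios moved together or apart in what follows. Abcd3 is among those genes, but its windows are not shown. Each window is the 250 bases before a RefSeq start in GRCm38.p6, read 5′ to 3′ on the strand of the gene. The windows of Ehhadh and Acaa1b adjoin the outer end of the gene. Those of Acaa1a and Eci2 lie inside the span of the gene, before an internal start. Capitals mark matches on either strand to the CCAAT box (CCAAT, read ATTGG on the other strand) and the GC box (GGGCGG, read CCGCCC on the other strand).
Ehhadh (chr16:21787835-21788084, minus strand): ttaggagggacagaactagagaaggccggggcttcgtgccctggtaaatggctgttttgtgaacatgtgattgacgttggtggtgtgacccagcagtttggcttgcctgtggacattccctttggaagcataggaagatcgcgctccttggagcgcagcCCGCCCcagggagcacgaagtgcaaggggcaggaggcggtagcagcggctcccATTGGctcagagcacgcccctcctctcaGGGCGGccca
Acaa1a (chr9:119341044-119341293, plus strand): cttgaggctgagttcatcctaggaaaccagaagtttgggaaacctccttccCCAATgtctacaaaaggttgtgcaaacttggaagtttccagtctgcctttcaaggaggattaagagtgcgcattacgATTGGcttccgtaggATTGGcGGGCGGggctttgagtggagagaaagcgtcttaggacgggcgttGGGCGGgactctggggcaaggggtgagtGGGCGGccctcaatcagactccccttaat
Acaa1b (chr9:119157094-119157343, minus strand): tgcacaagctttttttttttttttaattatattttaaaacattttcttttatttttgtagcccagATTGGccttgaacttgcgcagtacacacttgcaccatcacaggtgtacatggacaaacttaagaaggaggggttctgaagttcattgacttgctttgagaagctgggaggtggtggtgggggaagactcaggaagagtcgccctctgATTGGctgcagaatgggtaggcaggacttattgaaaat
Eci2 (chr13:34994145-34994394, minus strand): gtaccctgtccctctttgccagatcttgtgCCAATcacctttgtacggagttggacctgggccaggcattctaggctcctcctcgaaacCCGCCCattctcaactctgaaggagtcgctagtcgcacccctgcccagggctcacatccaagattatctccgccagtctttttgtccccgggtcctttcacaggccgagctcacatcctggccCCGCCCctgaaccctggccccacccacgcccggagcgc
These motifs are common promoter elements: CCAAT was in 33.8% and GGGCGG in 32.7% of all 32851 windows of this length. Among the 8 windows found for 7 of the 9 genes, 4 held CCAAT and 4 held GGGCGG. The windows printed above are the 4 that held CCAAT, and those of Abcd3 held neither motif. No link between a motif and the ratios was tested. The thiolase windows differed in that Acaa1a held 3 CCAAT and 3 GGGCGG matches while Acaa1b held 2 CCAAT and no GGGCGG match. These windows lie at unlike positions in their genes, so the difference is not one between like promoters. The element bound by PPAR-alpha with its partner RXR is a repeat of AGGTCA, spelled AGGTCANAGGTCA, which was in 0.0335% of all windows, and the single AGGTCA contained in it was in 14.0%. Neither was in any of the 8 windows, which says only that these letters are absent from the bases searched.

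After 14 days of H2-water, Ehhadh, Acaa1a and Abcd3 rose by between 1.11-fold and 1.23-fold. No gene of the 8 had a mean below 0, and 23 of the 24 array values lay above 0, the remaining one being a Decr2 value of -0.01. The 3 called higher, of 8 tested, stand beside 4.92% of all tested probes called higher, 3.91% called lower and 8.84% called in either direction. The median of the 8 genes was 0.18 and that of all tested probes -0.005, so the shift of the group was not one of the whole array. Acaa1a, Acaa1b and Eci2 are among the genes that the study selected on these same arrays, so their direction at 14 days is not independent evidence. The study lists them as increased in fatty acid metabolism, a list that does not name Ehhadh. It selected genes at a p under 0.05 and names no adjustment. Acaa1b and Eci2 were not called here after adjustment.

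Ehhadh encodes the bifunctional enzyme for straight-chain substrates. Its ratios at 14 days were 0.32, 0.30 and 0.29, a mean of 0.30 (SE 0.046, n = 3; 1.23-fold; adjusted p = 0.0042). The MgH2 arrays gave -0.07, -0.23 and 0.04 at 1 day, -0.07, -0.05 and -0.09 at 3 days, and 0.03, -0.02 and -0.04 at 7 days. All 3 H2-water arrays therefore lay above all 9 MgH2 arrays. The call at 14 days held when any of its arrays was left out (adjusted p between 0.034 and 0.040).

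Acaa1a encodes 1 of the pair of thiolases that catalyse the final step. Its ratios after H2-water were 0.31, 0.17 and 0.28, with a mean of 0.25 (SE 0.060, n = 3; 1.19-fold; adjusted p = 0.030). At 1 day of MgH2 they were 0.16, -0.05 and 0.002, at 3 days 0.05, -0.05 and -0.03, and at 7 days 0.11, -0.20 and -0.06. These straddle 0 at each time point, and all 9 lie below the lowest 14-day array. Abcd3, which carries branched-chain and dicarboxylic acyl-CoA into the peroxisome, gave 0.19, 0.15 and 0.14 after H2-water (mean 0.16, SE 0.042, n = 3; 1.11-fold; adjusted p = 0.047). Its 9 MgH2 values ran from -0.19 to 0.07, without overlap. The calls of Acaa1a and Abcd3 were the less firm: dividing each channel by its total gave 0.23 (adjusted p = 0.051) and 0.13 (adjusted p = 0.085), and with any 1 of the 14-day arrays left out neither was called.

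Acaa1b, the second thiolase, had as large a mean at 14 days as Ehhadh but was not called. The arrays read 0.30, 0.28 and 0.33, with a mean of 0.30 (SE 0.099, n = 3; adjusted p = 0.089). The 3 values agree closely (SD 0.022), and the larger SE comes from the MgH2 arrays, which share the fitted spread of this probe. Fitted on the 14-day arrays alone the adjusted p was 0.046. Eci2, an isomerase for unsaturated acyl-CoA that its probe lists under the older name Peci, gave 0.20, 0.05 and 0.21 (mean 0.15; 95% interval 0.035 to 0.27; adjusted p = 0.11). Pex11a gave 0.18, 0.29 and 0.17 (mean 0.21; 95% interval -0.083 to 0.51; adjusted p = 0.37).

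The bifunctional enzyme for branched-chain and bile acid substrates, Hsd17b4, and the reductase Decr2 had the smallest 14-day means. Hsd17b4 gave 0.08, 0.04 and 0.07 (mean 0.06; 95% interval -0.013 to 0.14; adjusted p = 0.29), and Decr2 gave -0.01, 0.03 and 0.13 (mean 0.05; 95% interval -0.059 to 0.16; adjusted p = 0.60). The upper ends of these intervals lie below the Ehhadh mean.

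**Figure D1:**
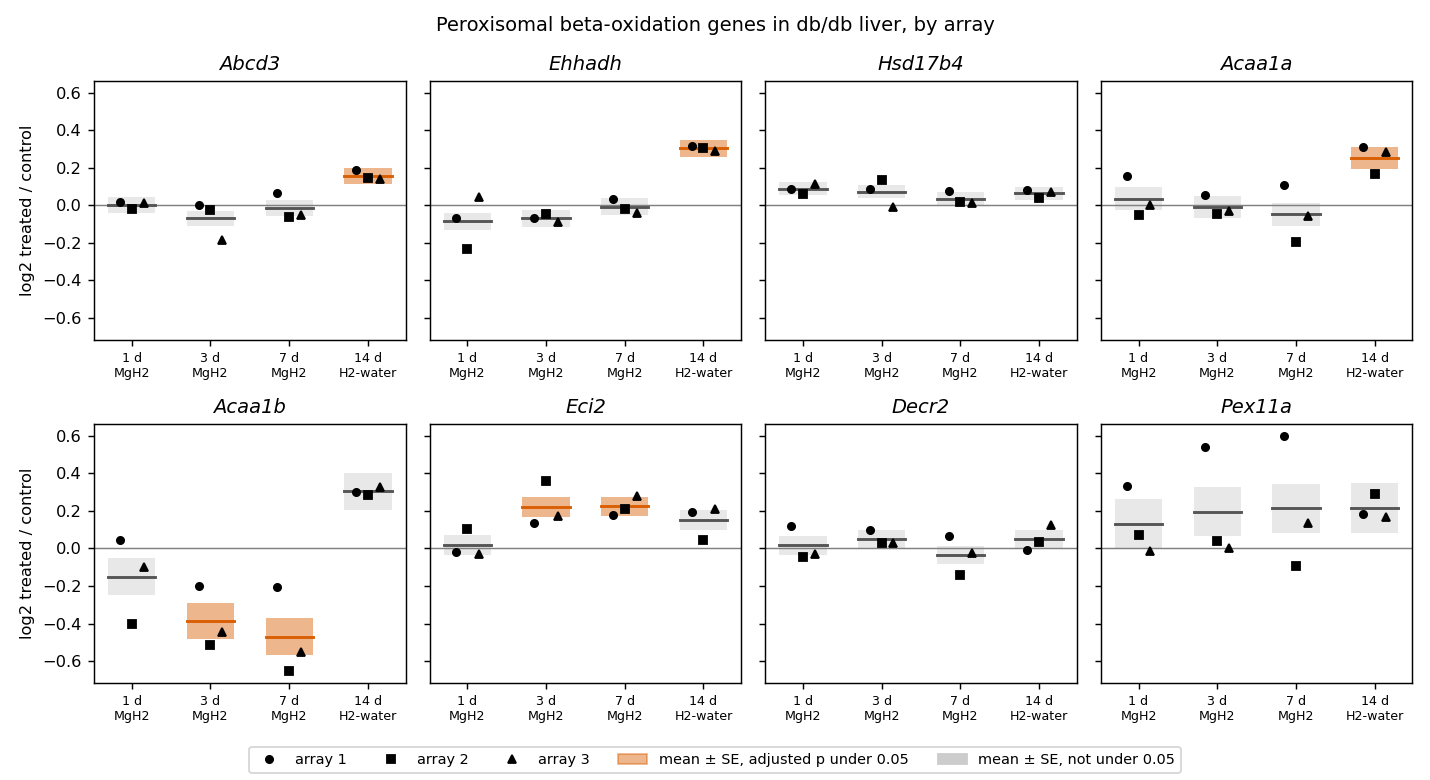
Each panel plots 1 gene, with log2 treated over control signal on the vertical axis and the 4 groups on the horizontal axis. Points are the 3 arrays of a group, lines the means and boxes ± SE of the limma fit, in orange where the adjusted p was under 0.05. Ehhadh, Acaa1a and Abcd3 stand above 0 at 14 days, Acaa1b lies below 0 and Eci2 above 0 at 3 and 7 days, and array 1 of Pex11a lies apart at 1, 3 and 7 days.

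After MgH2, a different pair of genes passed the test. At 1 day 0 of 8 were called by limma, where 5.15% of all tested probes were called higher and 4.24% lower (9.39% in all), and 1 (Hsd17b4) had an unadjusted p under 0.05. At 3 days 1 gene was higher (Eci2) and 1 lower (Acaa1b), against 12.3% of probes higher and 11.1% lower (23.4% in all). At 7 days the same genes were called in the same directions, against 15.3% higher and 14.3% lower (29.5% in all). With 2 of 8 called at either time, the share of members called was close to that of all probes, so it is not a result about the group. The medians of the 8 genes were 0.02 at 1 day, 0.02 at 3 days and -0.01 at 7 days.

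Acaa1b was the lowest of the 8 at each MgH2 time point. It read 0.05, -0.40 and -0.10 at 1 day (mean -0.15; adjusted p = 0.37), values on both sides of 0. At 3 days the arrays read -0.20, -0.52 and -0.45, a mean of -0.39 (SE 0.098, n = 3; 0.765-fold; adjusted p = 0.020). At 7 days they read -0.21, -0.65 and -0.55, a mean of -0.47 (SE 0.098, n = 3; 0.722-fold; adjusted p = 0.0063). All 6 arrays of 3 and 7 days were below 0, with array 1 the nearest to 0 in each group. Without array 2 or array 3 at 3 days the gene was no longer called (adjusted p 0.12 and 0.094), while at 7 days it was called with any array left out.

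The paralogue Acaa1a did not follow it on these arrays. The log2 ratio of Acaa1b minus that of Acaa1a on the same array was -0.25, -0.47 and -0.41 at 3 days and -0.31, -0.46 and -0.49 at 7 days. It was -0.11, -0.35 and -0.10 at 1 day and -0.01, 0.12 and 0.04 at 14 days. The gap was thus present on all 9 MgH2 arrays and near 0 on the H2-water arrays; it was noticed in the values and was not tested. Across the 12 arrays the ratios of these genes nevertheless rose and fell together (r = 0.94 for 12 arrays, a description). The genes are close in sequence, and how far each probe binds the transcript of the other is not known here.

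Eci2 moved the other way. Its arrays read -0.02, 0.10 and -0.03 at 1 day, 0.14, 0.36 and 0.17 at 3 days, and 0.18, 0.21 and 0.28 at 7 days. The means at 3 and 7 days were both 0.22 (SE 0.052, n = 3; 1.17-fold), with adjusted p = 0.014 and adjusted p = 0.010, and every array of those days lay above every array of 1 day. The call was lost without array 2 at 3 days (adjusted p = 0.10) and without array 3 at 7 days (adjusted p = 0.074). Fitted on the arrays of 1 group alone, neither Acaa1b nor Eci2 was called at 3 days (adjusted p 0.082 and 0.13) or at 7 days (0.059 and 0.060).

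The other members gave no call after MgH2. Hsd17b4 read 0.09, 0.06 and 0.11 at 1 day (mean 0.09; 95% interval 0.0098 to 0.16; adjusted p = 0.15), 0.09, 0.14 and -0.01 at 3 days, and 0.08, 0.02 and 0.01 at 7 days. For Abcd3 the 7-day arrays read 0.07, -0.06 and -0.05 (95% interval -0.11 to 0.078). Decr2 ranged over the 9 arrays from -0.14 to 0.12. These 3 genes stayed within 0.19 of 0 on every MgH2 array.

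Markers of other cell types moved at the same time points. Of all tested probes 12.3% were called higher and 11.1% lower at 3 days, and 15.3% and 14.3% at 7 days. Of the 8 Kupffer cell and leukocyte markers, 3 were lower and 1 higher at 3 days and 5 were lower at 7 days, with a summed log2 ratio from -0.38 to -0.29 at 3 days and from -0.43 to -0.33 at 7 days, while the 8 hepatocyte markers (2 higher at 3 days, 4 higher and 1 lower at 7 days) gave a summed ratio from 0.14 to 0.19 and from 0.17 to 0.26. At 14 days those ranges were -0.18 to 0.18 and -0.07 to -0.01. Of the 6 endothelial markers 3 were higher and 1 lower at 3 days, and 1 was higher and 1 lower at 7 days, and of 5 tested stellate cell markers 2 were lower at both times. The Kupffer, leukocyte and hepatocyte markers were all above background, and the part of these cell types in the Acaa1b and Eci2 values was not tested.

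Pex11a had the largest fitted SE of the 8 genes (0.13). It read 0.34, 0.07 and -0.01 at 1 day, 0.54, 0.04 and 0.004 at 3 days, and 0.60, -0.09 and 0.13 at 7 days, with means of 0.13, 0.20 and 0.21 and no call (adjusted p 0.58, 0.31 and 0.25). Array 1 was the highest in each MgH2 group, and the others ran from -0.09 to 0.13. The array carries the Pex11a probe on 10 spots, whose SD within 1 array was between 0.0098 and 0.022. Without array 1 the means were 0.03, 0.02 and 0.02.

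The separate channels show where that distance lay. In the control channel, as log2 signal over the array median, array 1 read between 5.37 and 5.38 at 1, 3 and 7 days, and arrays 2 and 3 between 5.74 and 5.82, without overlap. In the treated channel array 1 read from 5.69 to 5.98 and the others from 5.64 to 5.95, which overlap. Acaa1b had the same layout, with control values from 6.75 to 6.88 on array 1 against 7.05 to 7.32 on arrays 2 and 3, and treated values that overlapped. Abcd3 was the only other member whose control channel separated array 1 from the others (6.22 to 6.24 against 6.28 to 6.35).

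This layout is not limited to these genes. The MgH2 arrays were compared over all probes above background on all 12 arrays. Cy3 signals of arrays with the same number at 1, 3 and 7 days correlated at 0.9974 to 0.9989. That was above every pair of Cy3 signals within an MgH2 group (0.9949 to 0.9971). The Cy5 signals did not show this (0.9930 to 0.9966 against 0.9953 to 0.9977). The labels name a control for each day and do not say whether control RNA was used on more than 1 array, so the 1-, 3- and 7-day values may share controls and are set side by side here without being read as repeats of each other.

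**Figure D2:**
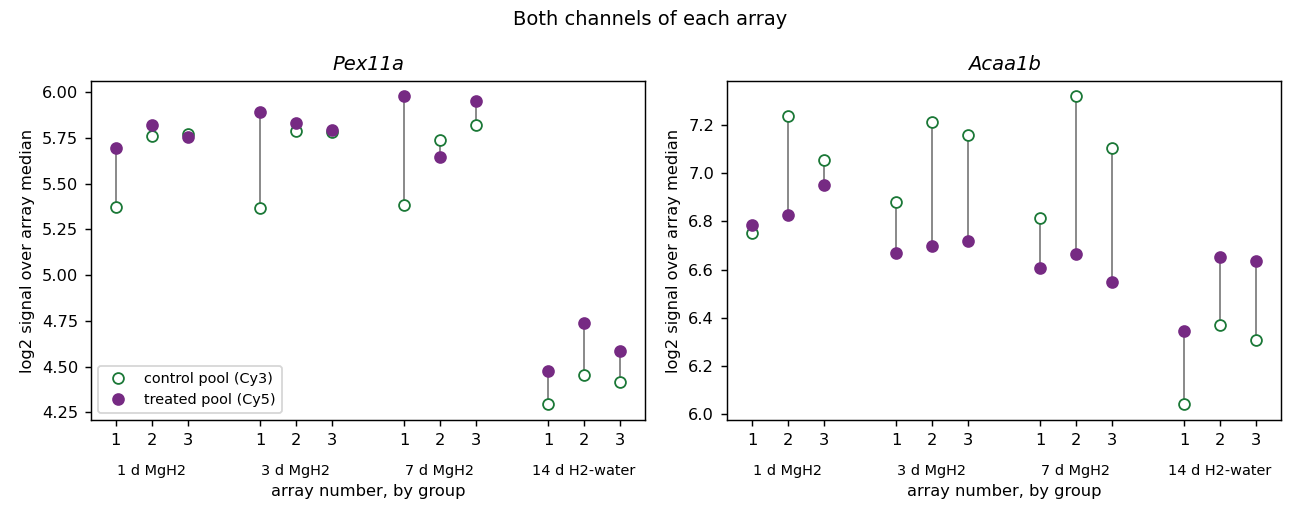
The vertical axis is log2 signal over the array median for Pex11a (left) and Acaa1b (right), and the horizontal axis lists arrays 1 to 3 of each group; open circles are control pools (Cy3), filled circles treated pools (Cy5), joined for 1 array. The control values of array 1 are the lowest at 1, 3 and 7 days for both genes, and both channels of the 14-day arrays sit lower than those of the MgH2 arrays for Pex11a.

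Differences between time points were tested on the ratios. For 3 days against 1 day 0 of 8 members were called by limma (0.0208% of probes, of which 0.0156% higher and 0.00521% lower; 1 member at an unadjusted p under 0.05), and for 7 days against 3 days 0 of 8 (0% of probes; 0 members unadjusted). For 7 days against 1 day 0 of 8 were called (6.98% of probes, of which 3.28% higher and 3.7% lower; 2 members unadjusted): Acaa1b differed by -0.32 (adjusted p = 0.19) and Eci2 by 0.20 (adjusted p = 0.12). With the replicate number as a block, Acaa1b was called lower (adjusted p = 0.0499) and Eci2 was not (adjusted p = 0.11). A limma fit with same-numbered MgH2 arrays as a random block, chosen after seeing the data, called both genes (Eci2 at adjusted p = 0.033). That fit called 2024 probes higher and 1985 lower of 19153, against 628 and 708 without the block. Using the treated channel alone gave -0.25 for Acaa1b (adjusted p = 0.030) and 0.20 for Eci2 (adjusted p = 0.096). Within the slide that held all 1-day arrays and array 1 of 3 days the 3-day minus 1-day difference of Acaa1b was -0.05, and with slide as a fixed block its 7-day minus 1-day difference was 0.005 (adjusted p = 0.997). The slides hold different array numbers on different days, so slide and number are mixed in that fit. Between arrays of the same number Acaa1b differed by -0.25, -0.25 and -0.45 for 7 days minus 1 day, and by -0.24, -0.11 and -0.35 for 3 days minus 1 day, of which the first pair lies within 1 slide.

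Between 14 days of H2-water and 7 days of MgH2, 2 of 8 members differed, both higher at 14 days, where 3.45% of probes were higher, 3.15% lower and 6.61% differed in all. Acaa1b differed by 0.77 (SE 0.14; 1.71-fold; adjusted p = 0.018), its 14-day arrays at 0.28 to 0.33 and its 7-day arrays at -0.65 to -0.21. Ehhadh differed by 0.31 (SE 0.064; 1.24-fold; adjusted p = 0.025), at 0.29 to 0.32 against -0.04 to 0.03. Neither pair of groups overlapped, which here and in the paragraphs above is a description only. The share of all probes without overlap is not given. Acaa1a (0.30; adjusted p = 0.060) and Abcd3 (0.17; adjusted p = 0.11) did not overlap either but missed the threshold, and Eci2 (-0.07; 95% interval -0.23 to 0.091) and Pex11a (-0.0004; 95% interval -0.41 to 0.41) had intervals that include 0. Both calls were lost with some arrays left out, namely Ehhadh without any one array except 7-day array 1 (highest adjusted p 0.092) and Acaa1b without 14-day array 2 or 3 or 7-day array 3 (highest adjusted p 0.071).

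**Figure D3:**
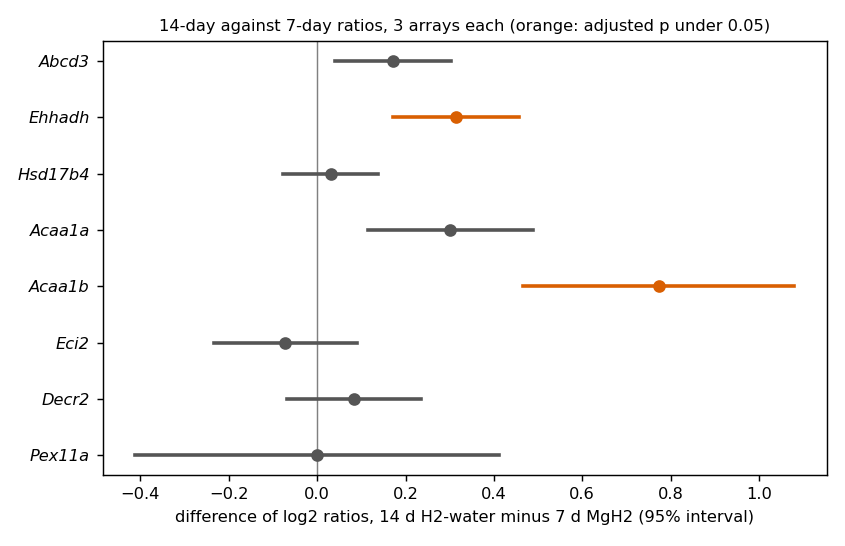
The horizontal axis is the log2 ratio at 14 days of H2-water minus that at 7 days of MgH2, with the 95% interval of the limma fit (3 arrays each), and the vertical axis lists the 8 genes; orange marks an adjusted p under 0.05. Acaa1b (0.77) and Ehhadh (0.31) are called, and the intervals of Eci2, Pex11a, Decr2 and Hsd17b4 include 0.

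The control pools of the 2 experiments also differed in level. Pex11a read 4.29 to 4.45 in the 14-day controls and 5.37 to 5.82 in the MgH2 controls, as log2 signal over the array median. The controls of Acaa1b read 6.04 to 6.37 against 6.75 to 7.32, those of Acaa1a 6.64 to 6.85 against 7.29 to 7.70, and those of Decr2 3.25 to 3.28 against 3.89 to 4.18, all lower at 14 days without overlap. The same held for the controls of Eci2 (5.51 to 5.65 against 5.89 to 6.08) and of Hsd17b4 (5.76 to 5.86 against 6.08 to 6.29). Ehhadh, at 4.09 to 4.51 against at most 4.17, and Abcd3, at 6.08 to 6.23 against 6.22 to 6.35, overlapped. In the treated channel Acaa1b read 6.34 to 6.65 at 14 days and 6.55 to 6.95 after MgH2, which overlap. The share of all probes whose controls did not overlap is not given, so these levels are a description and not a result about these genes. Slide, software version and experiment cannot be told apart from these level differences.

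Related lists of genes place the members in their pathway. Their counts stand beside the shares of all tested probes called. Those shares were 5.15% higher and 4.24% lower at 1 day, and 12.3% and 11.1% at 3 days. They were 15.3% and 14.3% at 7 days, and 4.92% and 3.91% at 14 days. No list was tested as a set. Among 21 other peroxisomal oxidation genes the median was -0.02 at 14 days, when 1 was called higher and 1 lower (Pecr, a trans-2-enoyl-CoA reductase, -0.16; adjusted p = 0.033). In the same list 7 genes fell and 1 rose at 7 days, with Nudt7, a CoA diphosphatase of peroxisomes, the lowest at -0.92 (adjusted p = 0.0040), after 3 lower and 1 higher at 3 days and 3 lower at 1 day. Eci3, a paralogue of Eci2, was not called at 3 days (0.07) or 7 days (0.11).

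Of 15 peroxisome biogenesis genes, 2 rose at 14 days (Pex14, an import docking protein, 0.21, adjusted p = 0.034, and Pex3, which anchors membrane proteins, 0.16, adjusted p = 0.041) and none fell, while at 7 days 1 rose (Pex3) and 3 fell (Pex10, Pex6 and Pex11g). The list called at most 1 gene at 1 day (Pex19, lower) and at 3 days (Pex6, lower).

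Of 17 mitochondrial beta-oxidation genes, 5 fell and 0 rose at 1 day, 5 rose and 2 fell at 3 days, 4 rose and 2 fell at 7 days, and 3 rose and 1 fell at 14 days. Cpt1a, which controls entry of long chains into mitochondria, rose at 3, 7 and 14 days (0.33, 0.42 and 0.27; adjusted p 0.0011, 0.00020 and 0.0068). Etfdh, which passes electrons from the dehydrogenases to ubiquinone, rose on the same days (0.23, 0.23 and 0.24). Cpt1a and Etfdh therefore rose at 3 and 7 days, when Ehhadh, Acaa1a and Abcd3 were not called.

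Of 19 tested PPAR-alpha targets outside the peroxisome, 2 rose and 1 fell at 1 day, 6 rose and 3 fell at 3 days and 6 rose and 4 fell at 7 days. Of those called at 3 and 7 days, Angptl4, an inhibitor of lipoprotein lipase, rose most (0.50 at 3 days and 0.59 at 7 days), and Fabp1, the liver fatty acid binding protein, fell most (-0.45 and -0.64). At 14 days 3 rose and 0 fell: Vnn1, a pantetheinase (0.48; adjusted p = 0.00057), Aldh3a2, a fatty aldehyde dehydrogenase (0.30; adjusted p = 0.0034), and Cyp4a32, a fatty acid hydroxylase (0.25; adjusted p = 0.032). Vnn1 and Aldh3a2 were lower at 7 days (-0.34 and -0.23), as Acaa1b was. The list had a median of 0.19 at 14 days, close to the members' 0.18, and of -0.05 at 7 days. Of 10 tested clock output genes, whose levels follow the time of day, 0 were called at any time point by limma, but single arrays differed widely. Their median at 14 days was 0.20, about that of the members, with Dbp the highest at 1.14, 0.38 and 1.32 (adjusted p = 0.071). At 1 day array 1 stood apart for Dbp (1.02, -0.42 and -0.45) and Arntl (-1.69, 0.65 and 0.78), as it did for Pex11a. Dbp and Arntl were picked after their values had been seen, and the part of time of day in the members' values was not tested.

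**Figure D4:**
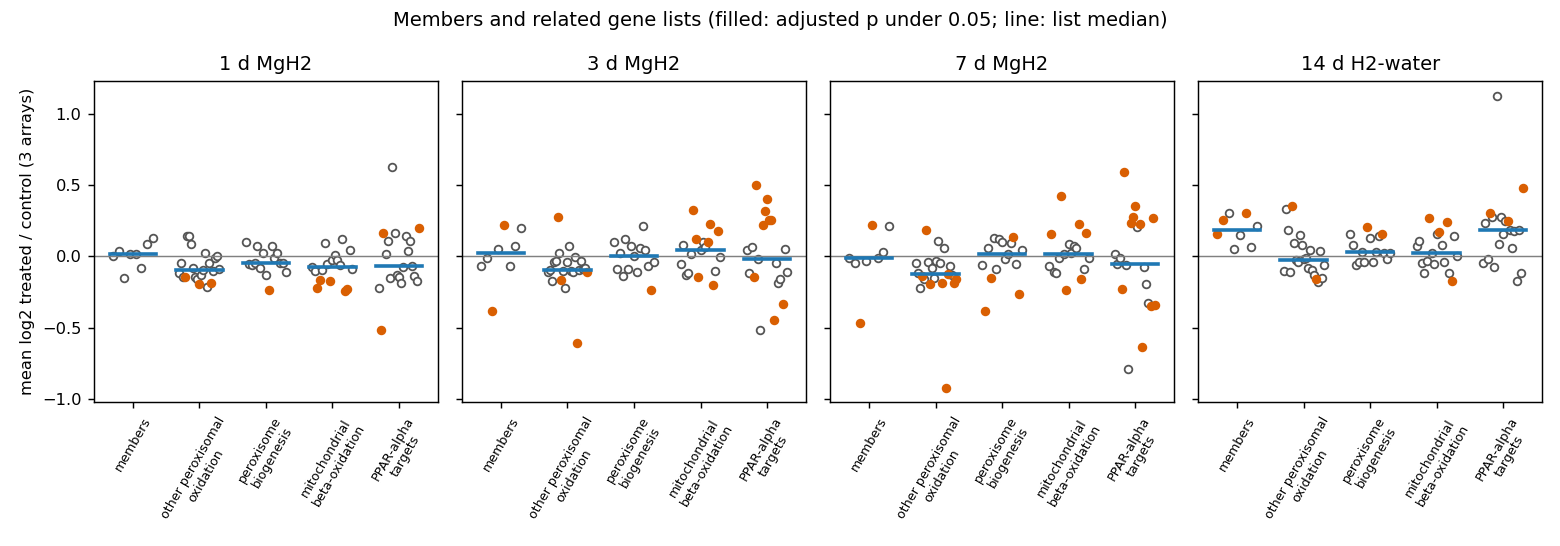
Each panel is 1 group, and each point 1 gene, with its mean log2 treated over control signal of 3 arrays on the vertical axis and the gene lists on the horizontal axis; filled points have an adjusted p under 0.05 and lines are list medians. The medians of the members (0.18) and of the PPAR-alpha targets (0.19) lie above 0 at 14 days, while those of the other 3 lists stay between -0.02 and 0.03.

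Among themselves the 8 genes formed 28 pairs, whose r over 12 arrays ran from -0.43 to 0.94 with a median of 0.32. Acaa1a, Acaa1b, Abcd3 and Ehhadh held the highest values, with 0.85 for Acaa1b and Abcd3, 0.81 for Ehhadh and Abcd3 and 0.80 for Ehhadh and Acaa1b, and the lowest was Eci2 with Acaa1b. These values describe 12 arrays that share slides and possibly controls and include 3 arrays of another experiment, so they carry no test. By the same measure over 11482 genes, the gene nearest to Ehhadh was Mrpl27 (0.92), and those nearest to Acaa1a Acsf3 (0.97) and Cryz (0.95), to Acaa1b Gngt1 and Slc25a10 (both 0.96), to Eci2 Eci3 (0.95) and Kyat3 (0.93), and to Abcd3 Sc5d (0.94) and Acsl5 (0.92).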

How the data were processed

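Liver RNA was hybridised to 12 two-colour Agilent arrays (3 in each of 4 groups, each channel a pool of 3 mice, 9 mice in a group). Signal intensity was deposited as scanner files: per the file headers, the Agilent Feature Extraction software (versions 10.7.3.1 for 14 days and 10.10.1.1 for the MgH2 arrays) subtracted background and removed dye bias by a linear and lowess fit. A deposited table of log ratios (log2 of Cy5 over Cy3, which matched the scanner files) was used only as an alternative. No lists of fold changes by the authors were used.

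Control and flagged spots were left out, spots of a probe were averaged, and log2 of Cy5 over Cy3 went into a limma fit of all 12 arrays (version 3.58.1, under R 4.3.3) that gave every group its own mean. Of 39429 probes, 26412 (67.0%) had a symbol by RefSeq record. Adjusted p-values are Benjamini-Hochberg over 18674 to 20411 probes above background on all arrays compared; contrasts between groups used the same fit. The number of arrays limits the precision, and p-values measure the spread between pools.

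The numbers of the arrays paired the 1-, 3- and 7-day groups: deviations of same-numbered arrays correlated at 0.37 to 0.65, over 0.1 in every pair. Between 14 and 7 days same-numbered arrays gave 0.035 to 0.29, not all over 0.1, and different numbers -0.26 to 0.029; between 14 and 1 day they gave 0.15 to 0.27. The 14-day animals belong to another experiment, and no source ties their numbers to the others. In simulated data the fit recovered 76.5%, 81.5%, 80.5% and 74% of 200 probes changed 1.5-fold (1, 3, 7 and 14 days). The simulated noise was independent between arrays, and every called group mean of a member was a smaller change. Recovery of changes of the members' size was not simulated.

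The members and lists were chosen with earlier results of these data known. All members are named, and from other lists at most 5 called genes a comparison by size of change. The likeness rule takes the 2 genes of highest r. Some genes that these rules name are not reported here. Alternatives were channel totals, median centring, normexp and loess, the deposited log ratios, no filter, outlier spots kept, all probes of a gene, only the arrays compared, trend and robust variances, replicate and slide blocks, each array left out and the methods' t-test. Promoters are RefSeq windows (GRCm38.p6) without the bases after the start.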

Additional observations from a re-analysis of the deposited data

Results flagged for a closer look

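The ratio of Acaa1b at 14 days of H2-water differed from that at 7 days of MgH2 by 0.77 on the log2 scale, by a limma test of the difference (adjusted p = 0.018), with all 3 arrays above 0 in the first group and all 3 below 0 in the second. The ratio of Ehhadh differed in the same contrast by 0.31 (adjusted p = 0.025), with the 7-day arrays on both sides of 0. Agent, route, control, experiment, slide and software version differ between these groups and cannot be told apart.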

How the results depend on the processing

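No called value of a member changed sign under any alternative (0 of 155), while 57 of 1013 values of results that were not called did, such as Acaa1a at 7 days, which ranged from -0.13 to 0.08. Against the threshold 1111 values stayed on their side, 42 lost a call and 15 gained one. Under the alternatives that moved a count of called members, the counts were as follows. At 1 day (0 called) the methods' t-test without adjustment called 1. At 3 days (2 called) there were 0 without the filter on dim probes, 0 with only the arrays compared, 0 by the methods' t-test with or without adjustment, and 0 to 2 with an array left out. At 7 days (2 called) there were 0 with only the arrays compared, 1 by the unadjusted t-test, 0 after Benjamini-Hochberg, and 1 to 2 with an array left out. At 14 days (3 called) there was 1 with channel totals, 1 without the filter, 0 by the t-test after Benjamini-Hochberg, and 1 with any array left out, and 4 with the replicate number as a block. For 7 days against 1 day (0 called) the replicate block gave 1, a random block of same-numbered MgH2 arrays gave 2 and the treated channel alone gave 1, the last pair of fits having been chosen after seeing the data. For 14 days against 7 days (2 called) there were 0 to 3 with an array left out, and 3 with the replicate block. The causes were not tested, except that fewer arrays leave fewer degrees of freedom. Members near background are limited by signal: Abcd2 gave no usable ratio.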
